A study of Zea mays with 4 samples.

Results

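The genes described here encode molecular chaperones of maize: the chaperonin 60 gene CPN60I, annotated as the gene models GRMZM2G458208 and GRMZM2G111477, HSP101 (GRMZM2G360681), the HSP90 genes GRMZM5G833699 and GRMZM2G069651, and the HSP70 gene hsp70-4 (GRMZM2G340251). They were chosen by gene identifier. Of the 6 identifiers, 5 had a row among the 30378 loci of the table, each at a locus with no other gene, and GRMZM5G833699 was not analysed here under its own identifier. The reference gene table lists hsp82 as another name of GRMZM5G833699, and a row named HSP82 is described below on the strength of that name alone. It lists both CPN60I models as names of 1 gene, so their 2 rows are not counted as independent genes. For GRMZM2G069651 it gives no chaperone name, and the description as HSP90 rests on the list of identifiers.

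Plants of the inbred line B73 were grown in hydroculture, and RNA was taken from the zone of the sixth leaf in which cells elongate. Of the 4 libraries, 2 (HN) came from plants given 4 mM nitrogen and 2 (LN) from plants given 0.04 mM. The labels do not state whether the libraries of a group came from different plants, and plant age is not given. P-values therefore measure no more than the spread between these libraries, and that spread may be technical. HN1 and HN2 stand for the first and the second HN column of the table, whose shared name leaves the replicate number unknown.

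Chaperones bind proteins that are unfolded or partly folded. HSP70 proteins hold short exposed stretches of a chain in cycles driven by ATP, and HSP90 proteins act later, on clients that are nearly folded, among them receptors and kinases. Chaperonin 60 forms a barrel in mitochondria and plastids in which imported proteins fold, and CPN60I and CPN60II are the maize mitochondrial forms. HSP101 is a ClpB-type disaggregase that pulls proteins out of aggregates and is needed for acquired heat tolerance in maize. Small heat shock proteins hold denatured proteins so that the others can refold them. Many of these genes are switched on by heat through heat shock factors, while others are expressed at all times.

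FPKM (fragment numbers scaled to transcript length and to the mapped fragments of a library) summed to between 666397 and 1113330 per library, the highest in HN2. Absolute depth is unknown. From the lowest values, HN1 and HN2 were estimated at 75.3% and 64.2% of the depth of LN1, and LN2 at 91.4%. All tests compare LN with HN on log2(FPKM + 1) with limma over 22489 loci, at a Benjamini-Hochberg adjusted p threshold of 0.05. By this test 855 loci, 3.80%, were lower in LN and 266, 1.18%, were higher. With 2 libraries against 2, an exact permutation test of a single gene cannot give a two-sided p below 0.333. The elongation-zone markers expB8, expB2, PIP1-1, TUBA2 and xth1 were present in all libraries, with a summed level of 3390 to 5235 FPKM in HN and 4175 to 4606 in LN. Markers of dividing cells (15 loci) summed to 1755 and 3630 FPKM in HN and to 596 and 508 in LN. Of these, kn1, a regulator of the shoot meristem, was listed at 0 in both LN libraries and at 0.0507 and 0.0715 FPKM in HN. Markers of greening cells (6 loci) summed to 5165 and 9310 FPKM in HN and to 2766 and 1678 in LN. Of the tested markers, 8 of 14 for dividing cells and 4 of 6 for greening cells were lower in LN. Of the dividing-cell loci, 9 carry the single histone name H3C2, 5 of the 8 called among them. The part of such cells in the chaperone results was not tested. In RNA from whole tissue, fewer cells of a type and less RNA per cell cannot be told apart.

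The chaperonin 60 transcripts were 3.06-fold to 4.25-fold less abundant in LN than in HN, and they were lower against each HN library alone. CPN60I model GRMZM2G458208 (chromosome 5, 31022590 to 31026410, in the coordinates of B73 RefGen_v3) was at 71.5 FPKM in HN1 and 79.8 in HN2, against 17.5 in LN1 and 18.1 in LN2. CPN60I model GRMZM2G111477 (chromosome 5, 31014040 to 31015732) was at 59.8 FPKM in HN1 and 68.3 in HN2, against 13.2 in LN1 and 17.6 in LN2. In both rows the HN libraries lay above the LN libraries with no overlap, as in 29.9% of all tested loci. GRMZM2G458208 fell by 2.02 on the log2 scale (SE 0.19, 95% interval -2.51 to -1.54, limma adjusted p = 0.0365). GRMZM2G111477 fell by 1.999 (SE 0.23, 95% interval -2.57 to -1.43, limma adjusted p = 0.0424). These 2 rows were the only listed ones past the threshold, where 3.80% of all tested loci were lower.

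The rows of CPN60I lie next to each other, 6857 bp apart, and the 2 stretches together with the gap span 12371 bp. The reference gene table, made on another assembly, lists both models under 1 gene of 5304 bp, shorter than that span, and whether they are 1 gene was not tested. Within a library the level of GRMZM2G458208 was 1.20 times that of GRMZM2G111477 in HN1, 1.17 times in HN2, 1.33 times in LN1 and 1.03 times in LN2. Taken as listed, the rows add no replicate to the comparison. Given alone, the LN mean of GRMZM2G458208 was 24.9% of HN1 and 22.3% of HN2, and that of GRMZM2G111477 was 25.7% of HN1 and 22.5% of HN2.

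CPN60II, the second mitochondrial chaperonin gene (chromosome 1, 234834522 to 234840412), was at 40.4 FPKM in HN1 and 49.2 in HN2, against 15.3 in LN1 and 14.0 in LN2. It was not among the 6 identifiers, but it lies in the same order, both HN libraries above both LN libraries, as in 29.9% of all tested loci. It fell by 1.54 (SE 0.21, 95% interval -2.06 to -1.03, limma adjusted p = 0.0434), and the LN mean was 36.3% of HN1 and 29.8% of HN2. GRMZM2G458208 was 1.77 and 1.62 times as abundant as CPN60II in HN1 and HN2, and 1.14 and 1.30 times in LN1 and LN2. The calls of all 3 chaperonin rows ended when LN1 or LN2 was left out, with changes of -2.20 to -1.48 in these fits. They also ended with all 30378 loci tested (limma adjusted p = 0.0737), where 0 loci were called lower. Under quantile normalization all 3 rows stayed called lower (limma adjusted p = 0.0187 to 0.0205), as were 7.78% of all tested loci. In the authors' deposited table the 3 rows had log2 fold changes of -2.19, -2.16 and -1.70, with q-values of 1.05e-09, 7.61e-09 and 2.57e-06.

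**Figure D1:**
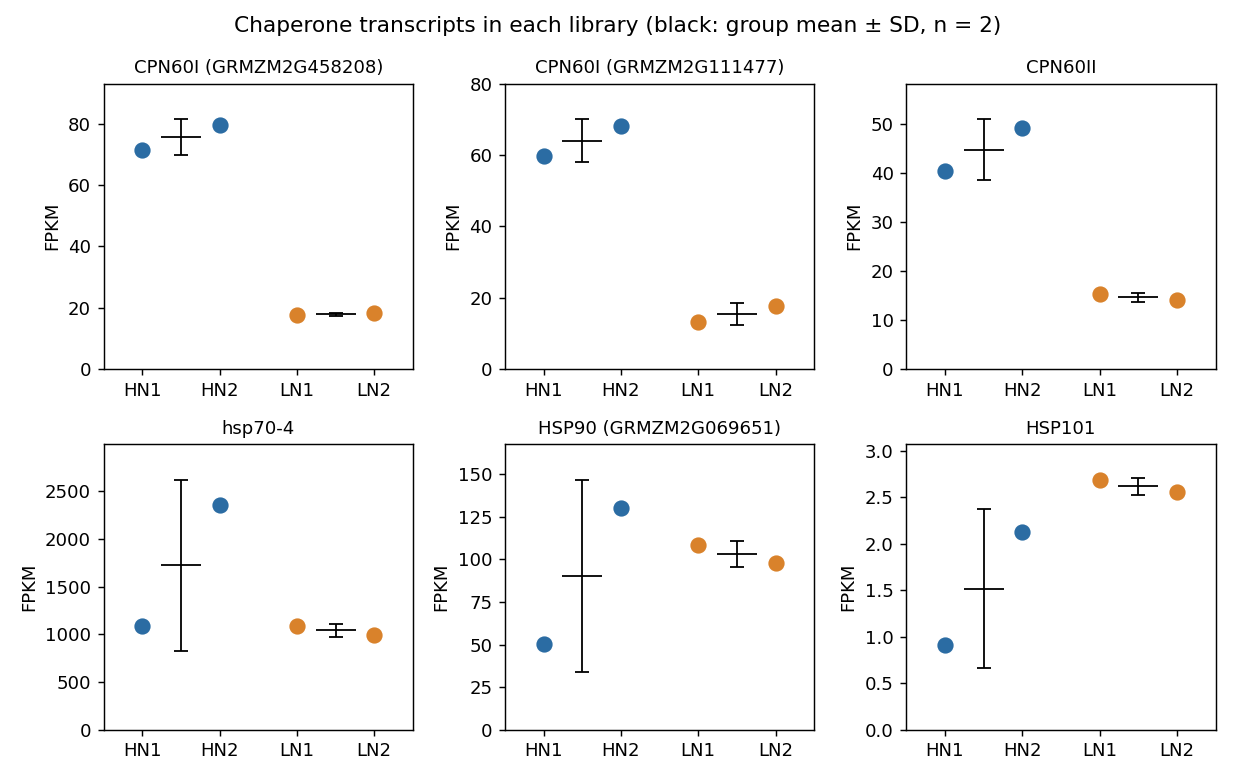
FPKM of 6 chaperone loci in each of the 4 libraries (points; HN blue, LN orange), with the group mean ± SD in black (n = 2) and each axis starting at 0. The 3 chaperonin 60 loci have both HN points above both LN points, while HN1 of hsp70-4, at 1091 FPKM, lies between the LN libraries at 1093 and 990.4.

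HSP70 was the most abundant listed transcript in every library, and its LN level was close to that of HN1 and below that of HN2. hsp70-4 (GRMZM2G340251, chromosome 3, 126479380 to 126484522) was at 1091 FPKM in HN1 and 2358 in HN2, against 1093 in LN1 and 990.4 in LN2. HN2 stood apart from the other 3 libraries, and the groups overlapped. The log2 change was -0.62 (SE 0.62, 95% interval -2.17 to 0.92, limma adjusted p = 0.513). Against HN1 alone the LN mean differed by -0.07 on the log2 scale, and against HN2 alone by -1.18. Without HN1, with the spread taken from the LN pair, the change was called (limma adjusted p = 0.0259), in a fit that called 23.6% of all loci lower. Under quantile normalization it was -0.12 (adjusted p = 0.741).

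The HSP90 gene GRMZM2G069651 (chromosome 7, 131816485 to 131820321) had an LN level between those of the HN libraries. It was at 50.3 FPKM in HN1 and 130.1 in HN2, against 108.7 in LN1 and 97.6 in LN2. The log2 change was 0.34 (SE 0.46, 95% interval -0.82 to 1.502, limma adjusted p = 0.636). Its sign depended on the HN library, being 1.02 against HN1 alone and -0.33 against HN2 alone. Under quantile normalization it was 0.85 and not called (limma adjusted p = 0.134). Without HN2 it was called higher (adjusted p = 0.0297), in a fit that called 9.41% of all loci higher, and without HN1 it was negative and not called (adjusted p = 0.131).

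HSP101 (GRMZM2G360681, chromosome 6, 160816569 to 160820239) was scarce. It was at 0.911 FPKM in HN1 and 2.13 in HN2, against 2.68 in LN1 and 2.55 in LN2. Both LN libraries were above both HN libraries, as in 36.6% of all tested loci, and HN2 was closer to LN than to HN1. The log2 change was 0.57 (SE 0.30, 95% interval -0.18 to 1.32, limma adjusted p = 0.244). It was 0.92 against HN1 alone and 0.21 against HN2 alone. In the fit without HN2 it was also 0.92. At this level log2(FPKM + 1) understates the ratio, which was 1.73 between the group means.

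The row named HSP82 (chromosome 10, 93697765 to 93700740), an HSP90 gene, was scarcer still, at 0.233 FPKM in HN1 and 0.412 in HN2, against 1.04 in LN1 and 1.09 in LN2. Its LN libraries were both above its HN libraries, as in 36.6% of all tested loci. The log2 change was 0.65 (SE 0.21, 95% interval 0.11 to 1.19, limma adjusted p = 0.114) and did not pass, and it was 0.40 under quantile normalization. The authors' deposited table called it higher, with a log2 fold change of 1.59 and a q-value of 0.00945. Of all tested loci that table called 5.76% higher and 13.6% lower.

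FPKM is scaled by transcript length, so levels can be ordered between genes. In LN the order was hsp70-4 (1042 ± 72.5 FPKM, SD, n = 2), GRMZM2G069651 (103 ± 7.80), GRMZM2G458208 (17.8 ± 0.456), GRMZM2G111477 (15.4 ± 3.12), HSP101 (2.62 ± 0.0922) and HSP82 (1.07 ± 0.0358). Neighbours in that order were apart by more than their spread, except the CPN60I rows, whose libraries overlapped. In HN the order of the means was the same, but GRMZM2G069651 (90.2 ± 56.4 FPKM) and GRMZM2G458208 (75.6 ± 5.91) overlapped. hsp70-4 was at 1724 ± 896 FPKM there and HSP101 at 1.52 ± 0.859. CPN60I thus lay near the level of GRMZM2G069651 in HN and well below it in LN.

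Further chaperone genes were taken by name, which gave 19 tested loci with the listed ones among them (GRMZM2G069651, without such a name, is not counted). Of the 19, 3 were lower by limma, all of them chaperonin 60 rows, and 0 were higher. These are counts of loci, in which the 2 CPN60I rows of 1 reference gene count separately. Before adjustment 4 loci were lower and 1 was higher at p under 0.05, where 16.4% of all tested loci were lower and 15.9% higher, so this count is near the background. By the q-values of the authors' deposited table, 6 loci were lower and 1 was higher at 0.05, beside 13.6% and 5.76% of all tested loci. The median log2 change was -0.62, with 13 of 19 negative, beside 0.07 and 45.3% negative over all tested loci. The median was -0.39 without the chaperonin rows, -0.12 under quantile normalization, and -1.16 and -0.20 in the fits without HN1 and without HN2. Under quantile normalization hsp18c joined the 3 chaperonin rows, which made 4 lower, where 7.78% of all tested loci were lower. Without HN1 12 of the 19 were lower, where 23.6% of all tested loci were, namely the chaperonin rows, HSP90-2, hsp70-4, hsp1, bip1, bip2, hsp18c, hsp18f, hsp22 and GRMZM2G158232. Without HN2 4 were lower and 1 was higher, beside 11.0% and 9.41%. LN lay below HN with no overlap at 9 of the 19 loci and above it at 2, while 29.9% of all tested loci were lower and 36.6% higher in this sense.

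**Figure D2:**
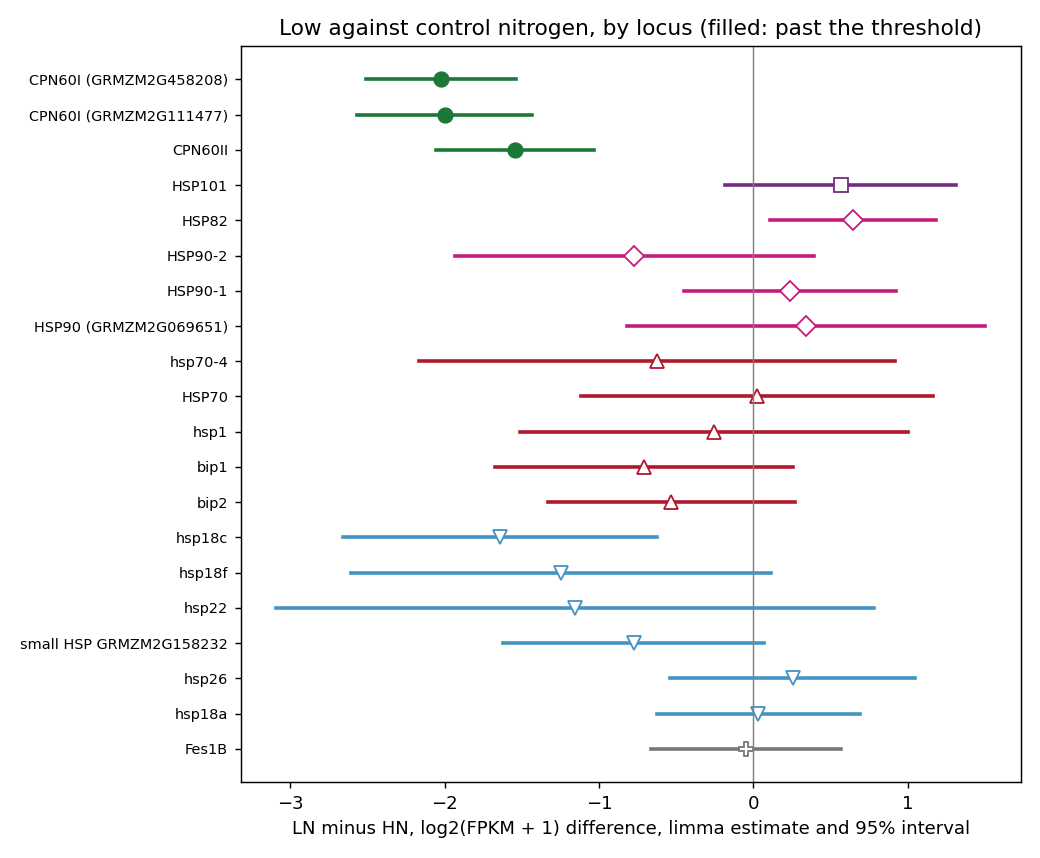
LN minus HN difference in log2(FPKM + 1) for 20 chaperone loci, the 19 found by name and GRMZM2G069651, with limma's estimate (symbol) and 95% interval (line). Filled symbols mark the 3 chaperonin 60 loci past the threshold, and the intervals of the HSP70 loci and of most small heat shock protein loci include 0.

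Small heat shock protein genes had lower levels in LN at 4 of 6 loci, none of them past the threshold. hsp18c (GRMZM2G034157, chromosome 8) was at 23.0 FPKM in HN1 and 53.9 in HN2, against 10.2 in LN1 and 11.1 in LN2. Both HN libraries were above both LN libraries, as in 29.9% of all tested loci. The log2 change was -1.64 (SE 0.41, 95% interval -2.66 to -0.63, limma adjusted p = 0.0712), and it was -1.04 and -2.24 against HN1 and HN2 alone. Under quantile normalization it was -1.55 and called lower (limma adjusted p = 0.0407), as were 7.78% of all tested loci. In the fits without HN1 and without HN2 it was -2.24 and -1.05. hsp22, of the mitochondrial small heat shock proteins (GRMZM2G007729, chromosome 4, 179852642 to 179853912), was at 24.3 FPKM in HN1 and 140.7 in HN2, against 25.4 in LN1 and 26.5 in LN2. Here HN2 alone was high, and HN1 was just below both LN libraries. hsp18f (GRMZM2G083810, chromosome 3) was at 5.62, 18.8, 4.85 and 2.99 FPKM in the same order of libraries, and GRMZM2G158232 at 4.75, 9.67, 3.52 and 3.63. hsp18a and hsp26 had log2 changes of 0.03 and 0.26, and of -0.11 and 0.044 under quantile normalization. In the authors' deposited table hsp18c, hsp18f and hsp22 were lower, with q-values of 0.000109, 0.0123 and 0.0218.

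Other HSP90 and HSP70 genes did not pass the threshold either. HSP90-2 (GRMZM2G012631, chromosome 4) was at 304.3 FPKM in HN1 and 673.7 in HN2, against 283.1 in LN1 and 248.0 in LN2. It was the most abundant HSP90 locus, and its log2 change was -0.77 (95% interval -1.93 to 0.39, limma adjusted p = 0.295), which turned to 0.10 under quantile normalization. HSP90-1 was at 21.7, 29.1, 24.6 and 36.2 FPKM in the same order of libraries. The lumenal HSP70 genes of the endoplasmic reticulum, bip1 and bip2, were lower by point estimate, at -0.71 and -0.53 on the log2 scale (limma adjusted p = 0.257 and 0.294). Under quantile normalization they were at 0.10 and -0.0065. Without HN1 they were at -1.16 and -0.90 and called (limma adjusted p = 0.0132 and 0.0158), and without HN2 at -0.26 and -0.16 and not called. The row named HSP70 and hsp1 had changes of 0.02 and -0.25, and each was positive against HN1 alone (0.68 and 0.50) and negative against HN2 alone (-0.59 and -0.99). Fes1B, a nucleotide exchange factor of HSP70, was at 0.742 to 1.30 FPKM.

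**Figure D3:**
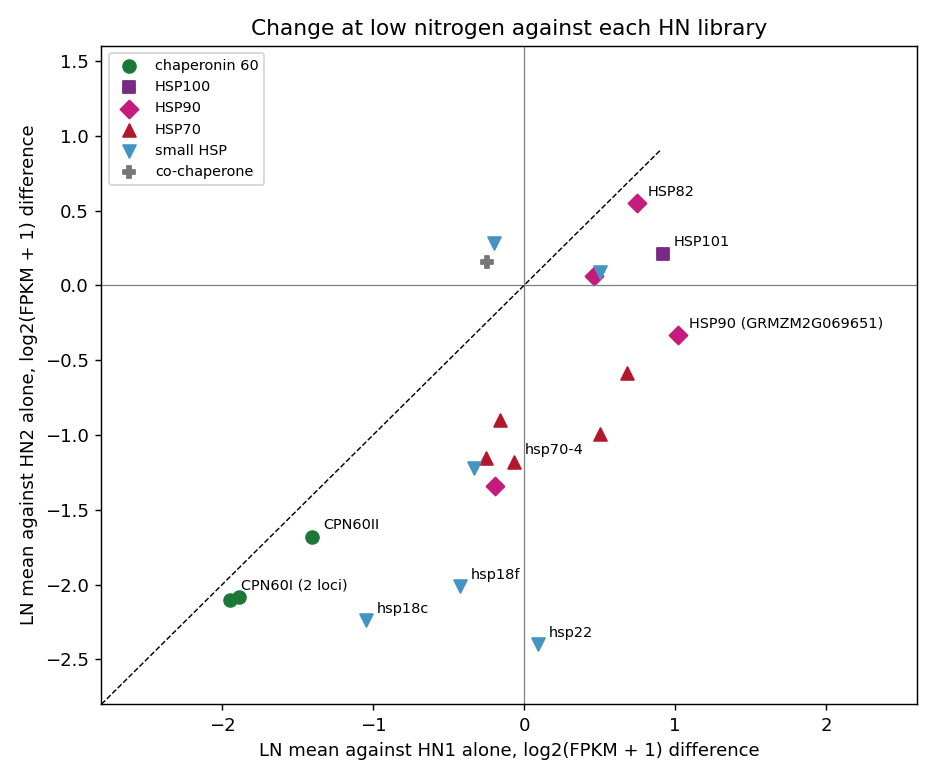
Difference between the LN mean and each HN library alone in log2(FPKM + 1), with HN1 on the horizontal and HN2 on the vertical axis, for 20 chaperone loci by family; the dashed line marks equal values. The 3 chaperonin 60 loci lie near the line and are negative on both axes, hsp22 lies at 0.09 and -2.40, and GRMZM2G069651 at 1.02 and -0.33.

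Most heat shock transcripts were more abundant in HN2 than in HN1. Over the 19 loci HN2 was above HN1 at 17, with a median difference of 0.74 on the log2 scale, beside 0.07 over all tested loci, where 54.9% were above. The exceptions were hsp18a, at 7.84 FPKM in HN1 and 5.35 in HN2, and Fes1B, at 1.30 and 0.742. At 9 of the 19 loci HN2 was at least 2-fold above HN1, as at 7.03% of all tested loci. hsp22 had the largest difference, 5.79-fold. At 0.227% of tested loci, hsp22 among them, HN2 was above HN1 by at least as much on the log2 scale. hsp18f differed 3.35-fold and hsp1 3.18-fold. Of the listed genes, GRMZM2G069651 differed 2.59-fold, HSP101 2.33-fold and hsp70-4 2.16-fold. The CPN60I rows differed by 1.12-fold and 1.14-fold and CPN60II by 1.22-fold. Under quantile normalization the median difference of the 19 loci was 0.54, hsp22 differed by 1.99, GRMZM2G069651 by 0.91 and hsp70-4 by 0.57, while the CPN60I rows were at -0.19 and -0.14. The LN libraries differed by a median of 0.17 at the 19 loci and by 0.14 over all tested loci, regardless of sign. The summed levels of dividing-cell, greening-cell and elongation-zone markers were also higher in HN2 than in HN1, and so was the FPKM summed over all loci. The greening-cell sum was mostly CAB1. In that list lhcb4 was lower in HN2, at 39.5 FPKM in HN1 and 27.0 in HN2, and so was rca1, at 13.0 and 10.2. The part of the marker levels and of the summed FPKM in the chaperone differences was not tested.

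**Figure D4:**
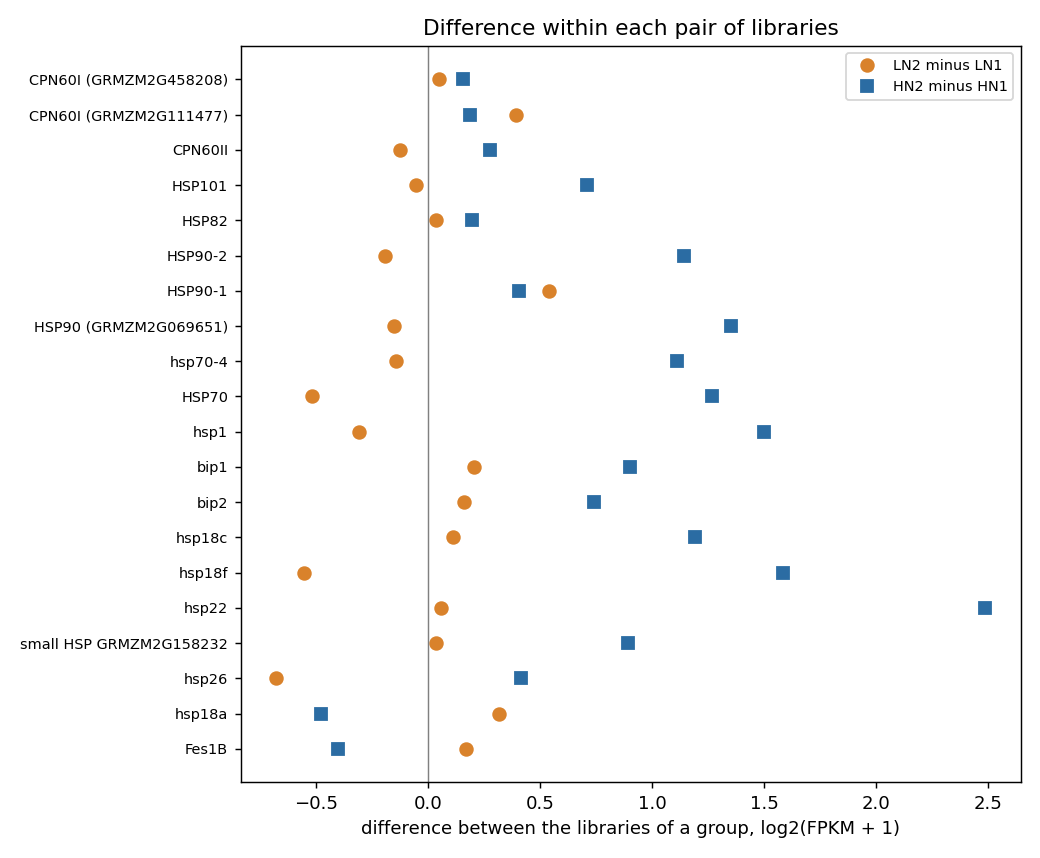
Difference between the libraries of a group in log2(FPKM + 1), HN2 minus HN1 (blue squares) and LN2 minus LN1 (orange circles), for 20 chaperone loci. HN2 is above HN1 at 18 of the 20 loci, by up to 2.48 for hsp22, and the LN differences lie between -0.68 and 0.54.

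Genes that act with these chaperones were also counted. Of 8 heat shock factor genes, 6 were tested and none passed by limma, beside 3.80% lower and 1.18% higher of all tested loci. None had a limma p under 0.05 before adjustment, beside 16.4% lower and 15.9% higher. None was called in the authors' deposited table, beside 13.6% lower and 5.76% higher. LN lay above HN with no overlap at 3 of the 6 and below it at 1, beside 36.6% and 29.9% of all tested loci. The median log2 change of the 6 was 0.14, with Hsf17 at 0.54 and Hsf12 at -0.33 (limma adjusted p = 0.179 and 0.310). Their median HN2 minus HN1 difference was 0.19. Of 16 endoplasmic reticulum folding loci, none passed by limma, beside the same 3.80% lower and 1.18% higher. HN2 was above HN1 at 12 of these loci. The median HN2 minus HN1 difference of the 16 was 0.42, and -0.039 under quantile normalization. Before adjustment 3 of them had p under 0.05, each negative, and 4 were lower by the q-values of the authors' deposited table, beside 16.4% and 13.6% of all tested loci. The list, matched by name, includes CNX5, which the table names MOCS3-1 and which is known as a molybdenum cofactor gene, not a chaperone. The median of the list was -0.33, with 11 negative, and it was 0.0039 under quantile normalization, where 2 of the 16 were called higher and none lower (4.32% and 7.78% of all tested loci). The protein disulfide isomerase gene pdi (GRMZM2G091481) was at 368.8 FPKM in HN1 and 536.8 in HN2, against 163.9 in LN1 and 204.6 in LN2, a log2 change of -1.28 (limma adjusted p = 0.0825). It was called lower without either HN library (limma adjusted p = 0.0112 and 0.0457), but under quantile normalization it was at -0.39 and not called (adjusted p = 0.146). The calreticulin gene crt2 had a change of -0.82 and the calnexin gene CNX one of -0.46, and under quantile normalization these were -0.019 and 0.34. Without HN1 8 of the 16 were lower, and without HN2 1 was, beside 23.6% and 11.0% of all tested loci. No gene name matched the pattern for mitochondrial import genes.

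The loci most like CPN60I and HSP101 were found from the distance between centred log2(FPKM + 1) values over the 4 libraries, among loci with a gene symbol and a mean of at least 5 FPKM. Nearest to GRMZM2G458208 were nfd106 (distance 0.200), the acidic ribosomal protein gene RP-P0 (0.210), SLD5 of the replicative helicase complex (0.222), the cytokinin response regulator gene RR7 (0.227) and the other CPN60I row (0.244). RP-P0, for example, was at 660.8 FPKM in HN1 and 866.0 in HN2, against 165.4 in LN1 and 192.8 in LN2. Nearest to HSP101 were Di19 (0.0428), XAT2 (0.0598), MYB64 (0.108), Bk2L4 (0.132) and a gene named actin (0.139), all of them lowest in HN1. HSP101, at 0.911 to 2.68 FPKM, lies where log2(FPKM + 1) understates ratios, so a small distance does not mean equal ratios. Di19, for example, was at 55.4 and 91.4 FPKM in HN1 and HN2, while HSP101 differed 2.33-fold between them. With 4 libraries these distances describe the samples only, and the nearest loci were picked from a very large number.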

How the data were processed

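FPKM values were deposited by the authors for 4 libraries, per the file headers. The table also holds the authors' log2 fold change of LN over HN, with their p-value and q-value, per the file headers. The build is B73 RefGen_v3, per the submitters' processing notes. The authors' tools edgeR and TopHat2 are named there with no version or role, and the quantifier is not given in the sources used here. One label writes the HN dose with the unit nM and another mM, and mM was used. Rows repeating a locus (946) held identical FPKM and were collapsed to 30378 loci. The 851 loci with several genes were tested but kept out of the lists. Loci that reached 1 FPKM in 2 or more libraries were fitted with limma 3.58.1 (R 4.3.3, trend, group as the only term, pseudocount 1 FPKM), after a test on simulated data.

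Names came from the reference gene table of assembly Zm-B73-REFERENCE-NAM-5.0, of which no coordinates were used. It matched 16691 of 30821 gene names to 1 gene. The members and lists were chosen with earlier results of these data known. All chaperone-named loci could be named in the text, the nearest 5 loci were taken by distance, and examples from the other lists were chosen after their values were seen. Promoter and protein sequences were not used here, so the planned motif search was not run. Alternatives were another pseudocount, other filters, quantile normalization and leaving out each library.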

Additional observations from a re-analysis of the deposited data

How the results depend on the processing

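The 3 chaperonin 60 rows kept their negative sign under every alternative run. With a pseudocount of 0.1 FPKM GRMZM2G111477 was at -2.06 (limma adjusted p = 0.0508) and CPN60II at -1.60 (0.0517), so that both just missed the threshold, and with all 30378 loci tested GRMZM2G458208 stayed at -2.02 and GRMZM2G111477 at -1.999 (0.0737). Leaving out each library in turn gave -2.10 to -1.95 for GRMZM2G458208, -2.20 to -1.80 for GRMZM2G111477, 0.21 to 0.92 for HSP101, -1.18 to -0.068 for hsp70-4 and -0.33 to 1.02 for GRMZM2G069651. The same omissions gave -0.031 to 0.51 for HSP90-1, -0.61 to 0.66 for HSP70, -1.003 to 0.50 for hsp1, -2.40 to 0.089 for hsp22, -0.082 to 0.59 for hsp26, -0.21 to 0.27 for hsp18a and -0.25 to 0.15 for Fes1B. Under quantile normalization HSP90-2 was at 0.10, bip1 at 0.10, hsp18a at -0.11 and CNX at 0.34, and HSP90-1 and HSP70 moved to 0.39 and 0.31 and Fes1B to -0.30, none of them called. The calls over all loci were 32 higher and 69 lower with the smaller pseudocount, 1 and 0 with all loci tested, 971 and 1749 under quantile normalization, and 22 to 5165 higher and 43 to 5305 lower with 1 library left out. The cause was not tested. By construction, a fit without a library of 1 group takes its residual spread, moderated over all loci, from the pair of the other group. HSP101 and HSP82 did not reach a filter at 5 FPKM. No paired analysis was possible because both HN columns carry the same name and no replicate number can be given to them. Absolute depth is unknown, so no counting error can be given for HSP101, HSP82 and other scarce transcripts.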
